A study of Mus musculus with 12 samples.

Results

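The 4 hyperplastic mammary glands from mice of the genotype MIC WT were described on their own, gene by gene and group by group, without a contrast to any other genotype. They were chosen by their genotype label and are 4 of the 12 RNA-seq samples of the series. The other 8 samples, 4 labelled Stat3 ko and 4 labelled Chi3l1 ko, enter no value given here. All 4 glands came from female FVB/N mice treated with doxycycline at 2 mg/ml, and their titles carry a mark of 2 weeks. MIC mice are a doxycycline-inducible breast cancer model: a reverse tetracycline activator under the mouse mammary tumor virus promoter turns on the polyoma middle T antigen and, from the same unit, Cre recombinase in mammary epithelial cells. The WT glands are thus middle T glands too, by genotype, and the design of the model relies on the activator's promoter working in the epithelium. The transgene transcripts were not analysed here. No gland without middle T was analysed here, so no level below is a change from normal tissue. The labels do not say what separates the 4 samples beyond a number in each title, so the measured spread between them may hold technical as well as animal differences. They are referred to as WT 1 to WT 4, numbers that only name them.

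Mammary epithelium is a bilayer of luminal cells, some hormone-sensing and some alveolar and milk-producing, on a layer of contractile basal cells, set in a bed of fat, fibroblasts, vessels and immune cells. Middle T antigen has no enzymatic activity of its own: it sits at the membrane, binds protein phosphatase 2A and Src family kinases, and its phosphorylated tyrosines dock Shc1, phosphoinositide 3-kinase and Plcg1, much as an activated growth factor receptor does. Stat3 is a transcription factor that cytokines of the interleukin 6 family and Src activate, and Chil1 is the mouse gene for the secreted chitinase-like protein Chi3l1. In a bulk gland, fewer cells of a type and less RNA per cell cannot be told apart.

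The measure was FPKM, counted fragments scaled to gene length and library total, deposited for 54532 genes. Gene counts per library ran from 16217143 to 21197189, and mitochondrial genes held between 1.002% and 1.51% of them. Values after ± are SDs over the 4 libraries (n = 4). Across the 12909 genes with a mean of at least 1 FPKM, the library pairs had Pearson correlations of log2(FPKM + 1) from 0.948 for WT 2 with WT 4 to 0.980 for WT 1 with WT 4. These correlations run across genes, which are not independent replicates. Between WT 1 and WT 4, 247 genes differed by over 2-fold on that scale, and between WT 2 and WT 4, 527 did. The libraries matched the female label: Xist, the RNA that coats the inactive X chromosome, read 43.3, 36.8, 42.1 and 27.7 FPKM in WT 1 to WT 4, and the Y-linked genes Ddx3y, Eif2s3y, Kdm5d and Uty had no count. Epithelial genes were among the abundant messages of every library: Krt8, a luminal keratin, read 744, 577, 635 and 934 FPKM and Epcam, an epithelial adhesion protein, 566, 576, 504 and 568 FPKM.

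A gland expressed about 12849 genes at 1 FPKM or more: 12703 in WT 1, 13108 in WT 2, 13058 in WT 3 and 12528 in WT 4, a mean of 12849 ± 280.0. WT 4 had the fewest and WT 2, the deepest library, the most. Of the detected genes 11853 passed in all 4 libraries, and 27184 of the listed genes had no count in any. Protein-coding genes made up 11446 ± 206 of the detected genes. By mean level, 7655 protein-coding genes (34.7%) were below 0.1 FPKM, 2870 lay between 0.1 and 1, 6675 between 1 and 10, 4462 between 10 and 100, 368 between 100 and 1000, and 16 at 1000 or above.

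The highest protein-coding genes belonged to antigen presentation, translation, mitochondria and milk. B2m, the light chain of MHC class I, ranked 1st at 4025, 5036, 3380.1 and 4047 FPKM and Eef1a1, the elongation factor that delivers tRNA to the ribosome, 2nd at 2749.7, 2426, 2622 and 3077 FPKM. Csn3, kappa-casein, ranked 4th at 2346, 2652, 2272 and 2275 FPKM. The secreted proteins Spp1 (osteopontin), Wfdc18, Lcn2 (lipocalin 2), Lalba (alpha-lactalbumin), Ltf (lactotransferrin) and Igfbp5 were also among the 25 highest protein-coding genes, with the MHC genes H2-D1 and Cd74, the ferritin heavy chain Fth1, the ribosomal genes Rplp1, Rplp0, Rps3a1, Rpl36 and Rps15, and the mitochondrial genes mt-Co1, mt-Nd1, mt-Cytb and mt-Nd2. Spp1 was the least even of these 25 by range, at 1386, 3395, 3018 and 895 FPKM: WT 2 and WT 3 were high and WT 1 and WT 4 low. The 10 highest protein-coding genes held 8.68 ± 0.407% of protein-coding FPKM, the 100 highest 27.4 ± 0.687%, and 562 genes held 50%. Stat3 ranked 901st at 49.6, 49.7, 46.2 and 46.4 FPKM, a mean of 47.98 ± 1.93, with a narrow range. Chil1 ranked 231st at 125, 212, 160.0 and 107 FPKM, a mean of 151 ± 46.3, with WT 2 the highest and WT 4 the lowest.

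**Figure D1:**
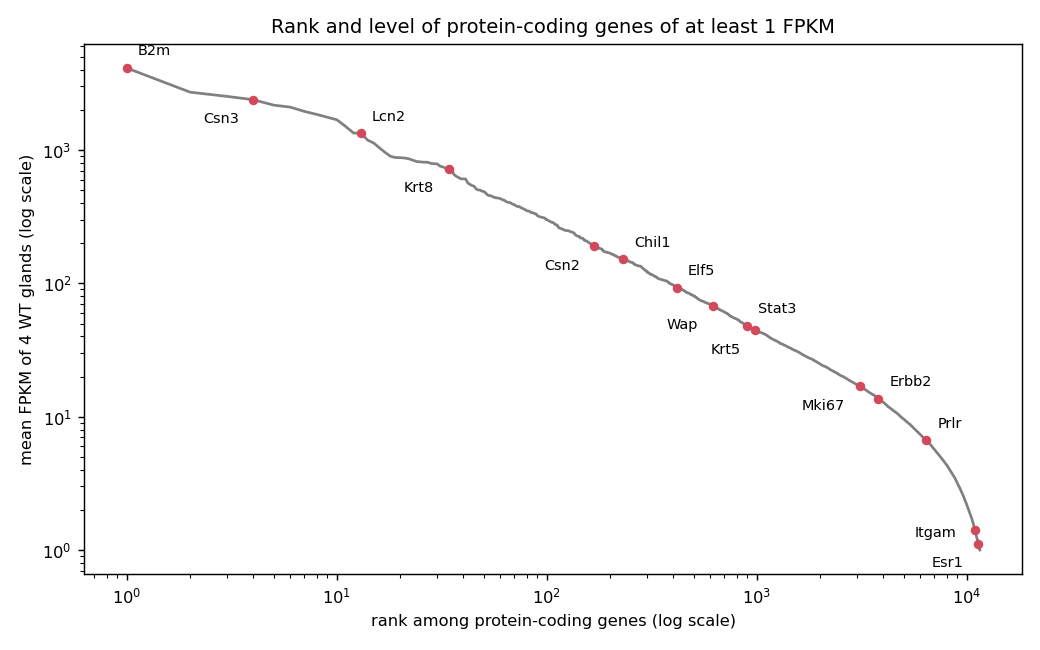
Mean FPKM of 4 WT glands (log scale) against rank (log scale) for the 11521 protein-coding genes of at least 1 FPKM, with 15 genes marked. B2m, Csn3 and Lcn2 lie above 1000 FPKM, the milk genes Csn2 and Wap lie far below Csn3, and the hormone receptor gene Esr1 sits at the lower end; Csn2, Wap, Elf5, Mki67 and Itgam were chosen after their values were seen.

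The weight of each gene class depended on the unit. Protein-coding genes held 97.7 ± 0.115% of counts but 88.2 ± 0.757% of summed FPKM, which divides by gene length. The miRNA class held 0.0914 ± 0.0156% of counts and 4.77 ± 0.701% of FPKM, and processed pseudogenes, intronless copies of messages, held 0.888 ± 0.0320% of counts and 4.64 ± 0.164% of FPKM. For lincRNA the 2 shares were closer, at 0.430 ± 0.0519% of counts and 0.375 ± 0.0508% of FPKM, and the highest lincRNAs by mean FPKM with 10 counts in each library were AW112010 at 67.1, 136, 58.3 and 73.1 FPKM and Gm10076 at 32.4, 202, 43.5 and 29.5 FPKM. Malat1, among the 4 highest, read 47.9, 80.2, 58.3 and 32.4 FPKM. These 3 were highest in WT 2, and the mean of Gm10076 was 76.8 ± 83.5 with that library and 35.1 without it. The class rRNA held 0.174 ± 0.0444% of counts, nearly all from CT010467.1 at 511, 909, 627 and 550.3 FPKM, highest in WT 2.

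**Figure D2:**
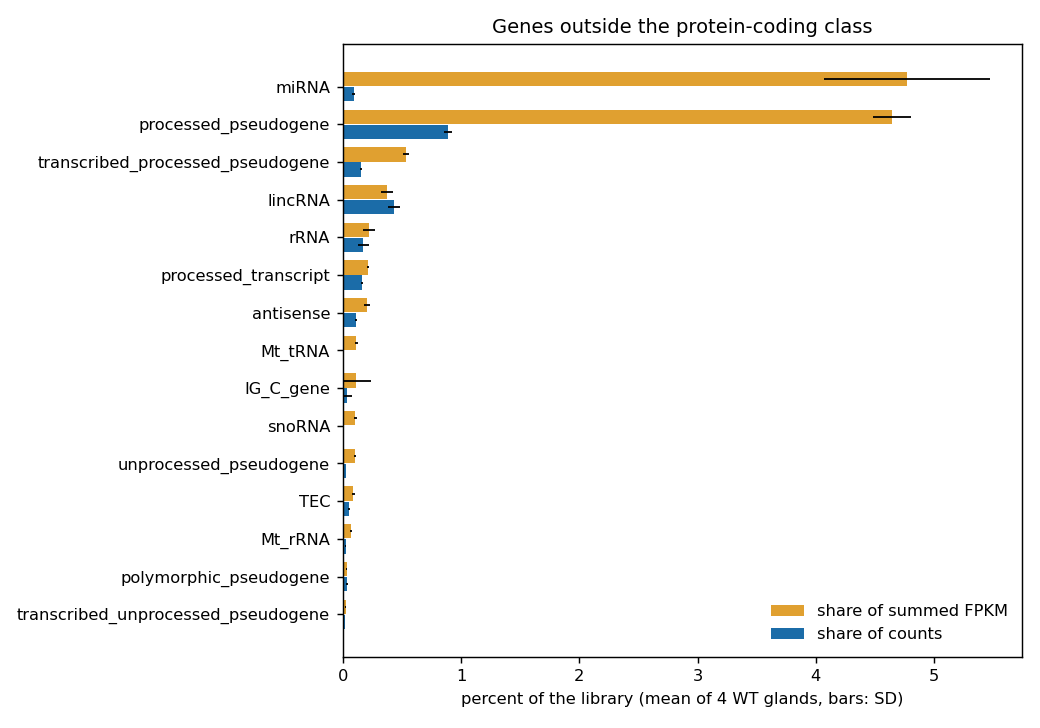
Percent of each library held by gene classes other than protein-coding, as share of summed FPKM (orange) and share of counts (blue), means of 4 WT glands with SD bars. The miRNA and processed pseudogene classes each hold over 4% of FPKM and under 1% of counts.

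The FPKM of the miRNA class came almost whole from 1 short gene. Gm23935, annotated as a miRNA gene of 57 bases at chr16:11144125-11144181 on the plus strand (GRCm38) within an intron of Zc3h7a, a gene on the opposite strand at 11.7 FPKM, read 10962, 17571, 12409.9 and 14350.2 FPKM from 11165, 22402, 13430 and 15652 counts. No other gene of any class read as high. Gm24270, at chr9:56223715-56223771 on the minus strand in an intron of Peak1, read 307, 349, 432 and 374 FPKM. Gm24245, at chr4:139338304-139338360 on the plus strand, had 0 counts. The 3 genes are shown because their annotated sequences are the same 57 bases, which no other transcript of the GENCODE M21 annotation holds:
Gm23935, Gm24270 and Gm24245: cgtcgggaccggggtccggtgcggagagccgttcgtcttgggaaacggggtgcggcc
Reads of this sequence cannot be assigned to 1 of the 3 by sequence alone, so the levels of Gm23935 and Gm24270 are uncertain. Only annotated transcripts were searched, so whether the reads come from another source was not tested. The rank of Gm23935 above all other genes is therefore uncertain too. Like the rRNA entry CT010467.1, it was highest in WT 2 and lowest in WT 1, and a link between them was not tested. Mir5125, at chr17:23823291-23823369 on the plus strand in an intron of Srrm2, read 92.1, 92.2, 140.0 and 75.4 FPKM from 617 counts in all, highest in WT 3. Its mature miRNA is given from RefSeq (GRCm38.p6), with the seed, bases 2 to 8, in capitals:
mmu-miR-5125: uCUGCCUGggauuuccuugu
Counts of the host message and of the miRNA precursor cannot be told apart in this intron, and these libraries give no level of the mature miRNA. Of 77 miRNA genes with a mean of at least 1 FPKM, 57 were found in the RefSeq miRNA table.

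Near-identical copies limit several abundant families. Rpl34-ps1, a processed pseudogene of the ribosomal protein gene Rpl34, read 990.3 ± 48.4 FPKM while Rpl34 read 3.02 ± 0.300. Of 125 pseudogenes, processed and unprocessed classes together, named after a gene in the table and at 1 FPKM or more, 26 read above that gene, 10 of these at 100 FPKM or more. Rpl17 and its copy Rpl17-ps10 divided their counts unevenly: Rpl17 read 180.0, 121, 97.5 and 329 FPKM and Rpl17-ps10 521, 555, 471 and 191 FPKM, so the copy was the higher in WT 1 to WT 3 and Rpl17 in WT 4. Their sums were 701, 676, 569 and 519.9 FPKM. Levels of single genes in such families are uncertain. The glycolytic enzyme gene Gapdh, a common reference, read 24.98, 3.26, 3.22 and 3.34 FPKM, high in WT 1 alone. The mitochondrial gene mt-Co1 read 2528 ± 632 FPKM against 28.01 ± 7.35 for mt-Co2 and 18.6 ± 5.67 for mt-Co3, and Hba-a2 read near 0 beside 156 ± 55.5 for its copy Hba-a1. These pseudogene, copy and mitochondrial examples, apart from Rpl34-ps1, Rpl17-ps10, Gapdh, mt-Co1 and Hba-a1, were chosen after their values were seen.

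Levels were then described for 40 lists of genes, by cell type or function. For each list the median FPKM over its genes was taken in each library. Of the 40 lists, 22 had a mean median of 10 FPKM or more, 5 of these at 100 or more, and 7 were below 1 FPKM. The same median over all 12909 genes of at least 1 FPKM was 7.11 ± 0.0610 FPKM. The library in which each gene was highest was also recorded: over those 12909 genes it was WT 1 for 18.8%, WT 2 for 26.6%, WT 3 for 18.4% and WT 4 for 36.3%. With each library scaled to the same summed FPKM (the TPM scale), these shares were 30.8%, 14.5%, 25.5% and 29.2%, so counts of genes highest or lowest in a library are given under TPM too where they differ; a count with no TPM value was the same on both scales. The lowest library was WT 1 for 19.9% of all genes, WT 2 for 29.5%, WT 3 for 26.2% and WT 4 for 24.3%. Under TPM these shares were 10.7%, 51.03%, 12.5% and 25.7%. The counts of genes highest or lowest in a library are descriptions of 4 libraries and carry no test.

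**Figure D3:**
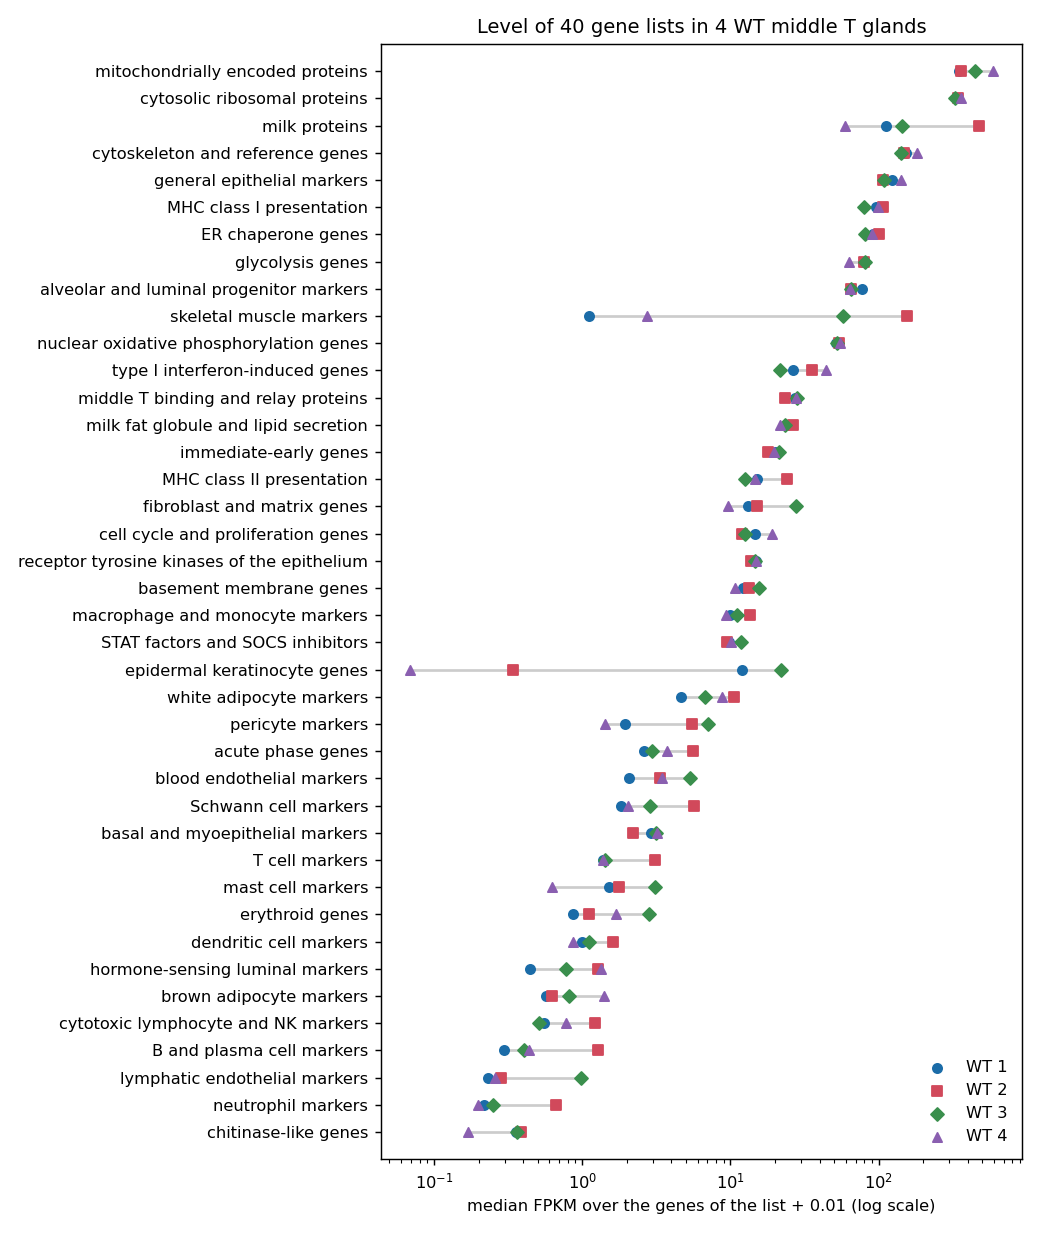
Median FPKM + 0.01 (log scale) over the genes of each of 40 lists in WT 1 to WT 4, one marker per gland, with a grey line over the range. Mitochondrial, ribosomal, milk and cytoskeleton lists lie highest, B cell, neutrophil, lymphatic and chitinase-like lists lowest, and the skeletal muscle, epidermal and milk lists have the widest ranges.

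Milk genes formed an abundant, even set and a lower, uneven set. Csn3 varied little between glands, with a mean of 2386 ± 180.2 FPKM. Wfdc18, a whey acidic protein family member, read 1343 ± 177 FPKM, Lalba 1189 ± 152 and Ltf 1127 ± 209. These 4 genes had ranges under 2-fold. Csn1s2a, an alpha-S2 casein, read 11.9, 222, 28.1 and 5.59 FPKM, with WT 2 far above the rest and WT 4 lowest, a range of 39.6-fold. Its neighbours in the casein cluster, chosen after their values were seen, had the same order of libraries: Csn1s1 (alpha-S1 casein) read 112, 474, 200.3 and 59.1 FPKM and Csn2 (beta-casein) 85.9, 499, 144 and 33.6 FPKM. The whey acidic protein gene Wap, also chosen after its values were seen, read 67.3, 107, 62.1 and 36.6 FPKM with WT 2 highest and WT 4 lowest. Set per unit of Csn3, which lies in the same cluster, Csn2 ranged from 0.0148 in WT 4 to 0.188 in WT 2. Over the 12 milk genes at 1 FPKM or more, 10 were highest in WT 2, or 9 under TPM. Over the list the median was 112, 474, 144 and 59.1 FPKM, a mean of 197 ± 188, and without WT 2 it was 105.

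The Csn2 promoter holds a known STAT5 site. In the 250 bases before the RefSeq gene starts (GRCm38.p6), the STAT site TTCNNNGAA, which reads the same on both strands, occurred in 3 of 10 milk promoters matched (30%) and in 517 of 9060 promoters of protein-coding genes of at least 1 FPKM (5.71%). The Csn2 stretch around it is shown, chr5:87699470-87699558 on the minus strand, with the match in capitals, 93 bases before a start that lies 205 bases from the deposited one:
Csn2: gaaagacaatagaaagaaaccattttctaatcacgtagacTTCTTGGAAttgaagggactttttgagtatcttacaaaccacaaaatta
The 250 bases before Csn1s2a and before Lcn2 held no match, which says only that these letters are not in those windows. A match is a string of letters, not evidence that a factor was bound. Of the prolactin pathway that ends at such sites, Stat5b read 23.9 ± 1.30 FPKM, Stat5a, chosen after its values were seen, 18.7 ± 0.702, and Prlr, the prolactin receptor, 6.64 ± 0.656.

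Alveolar and luminal progenitor genes were high and about as even as other genes. The median over the list was 76.98, 64.6, 64.9 and 64.1 FPKM, WT 1 being highest, and the median spread of its members was 0.0885, a coefficient of variation (CV) over the 4 libraries with the counting part removed. Over all 12909 genes the same median was 0.0943, and over genes of at least 10 FPKM it was 0.0793. Lcn2, an iron-binding lipocalin, read 1410.0, 1417, 1244 and 1285 FPKM, Cd14 168, 196, 168 and 203 FPKM and Sox10, a factor of progenitor states, 147, 128, 144 and 134 FPKM. Ehf, an ETS factor, read 108 ± 6.32 FPKM and Kit, the stem cell factor receptor, 16.2 ± 1.61. Elf5, the ETS factor of the alveolar lineage, chosen after its values were seen, read 103, 91.3, 93.2 and 83.3 FPKM. General epithelial genes had a median of 122, 107, 109 and 143 FPKM, and 13 of 16 were highest in WT 4, or 9 under TPM. Krt18, the partner of Krt8, read 588, 443, 556 and 848 FPKM and the tight junction gene Cldn4 109, 64.7, 95.6 and 216 FPKM, with WT 4 highest for both. Spint2, a membrane protease inhibitor, was the most even of the list at 139, 143, 132 and 144 FPKM.

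Hormone-sensing genes split in a different way: a few read high, and the steroid receptors Esr1 and Pgr read near 1 FPKM or below. The prolactin receptor gene Prlr, also on the list, read higher, as given above. Esr1, the estrogen receptor, read 1.01, 1.29, 1.03 and 1.12 FPKM, rank 11335 of 11521 protein-coding genes. Pgr, the progesterone receptor, read 0.0196, 0.0314, 0.0986 and 0.428 FPKM, below 1 in every library. Foxa1, a cofactor of estrogen receptor binding, read 0.118, 0.578, 0.443 and 1.56 FPKM and Cited1 0.128, 0.663, 0.210 and 1.07 FPKM, each highest in WT 4 and lowest in WT 1. The paracrine factors downstream of these receptors were also low, with Areg at 1.10 ± 0.611 FPKM, Wnt4 at 0.757 ± 0.342 and Tnfsf11 at 0.153 ± 0.122. Tbx3 read 0.357 ± 0.212 FPKM and Cxcl15 0.0478 ± 0.0530. In contrast Ly6a read 455 ± 123 FPKM, S100a6 86.2 ± 7.60 and Gata3, the factor of the whole luminal lineage, 43.3 ± 3.26. Which cells these messages come from was not tested. Prom1 read 7.52, 3.01, 6.02 and 11.9 FPKM, highest in WT 4 and lowest in WT 2. Thus 7 of the 14 genes reached 1 FPKM.

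Basal and myoepithelial genes were low beside the luminal keratins. Krt5 read 58.9, 17.3, 57.7 and 44.3 FPKM and Krt14 57.5, 18.5, 47.5 and 47.3 FPKM, both lowest in WT 2. Krt5 was between 0.0299 and 0.0909 of Krt8 on the FPKM scale. Krt17 read 9.37 ± 4.70 FPKM and Acta2, smooth muscle actin of contractile cells, 16.7 ± 4.94. The notch ligand Jag2 read 3.07 ± 0.578. The list's median was 2.86 ± 0.449 FPKM, 11 of 14 genes reached 1 FPKM, and 9 of those 11 were lowest in WT 2 on both scales, against 29.5% of all genes by FPKM and 51.03% under TPM. Genes of the epidermis, described below, were also low in WT 2, and their part in the result was not tested.

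The genes of proteins that middle T binds or signals through were all detected as messages, with a spread near that of other genes at their level. All 27 genes reached 1 FPKM, with a median of 27.4, 23.2, 28.3 and 27.8 FPKM and a median CV of 0.0815. Genes of at least 10 FPKM, a level that 21 of the 27 reached, had a median CV of 0.0793. The 14-3-3 proteins, phosphoserine binders, were among the highest: Ywhae read 257, 229, 232 and 256 FPKM, Ywhaz 121 ± 11.8, Ywhah 88.6 ± 4.47, Ywhab 83.6 ± 4.47, Ywhaq 73.9 ± 6.14 and Ywhag 68.2 ± 6.33. Of protein phosphatase 2A, the scaffold Ppp2r1a read 73.3 ± 5.07 FPKM against 8.46 ± 0.517 for Ppp2r1b, and the catalytic subunits Ppp2cb and Ppp2ca 56.97 ± 4.70 and 34.9 ± 3.53. Among the kinases Src read 34.2, 30.9, 29.99 and 31.3 FPKM, above Yes1 at 8.39, 6.06, 7.23 and 7.13 and Fyn at 4.40, 6.68, 5.96 and 4.62; the ranges of Yes1 and Fyn overlapped. Of the docking proteins Shc1 read 20.04 ± 1.27 FPKM, Grb2 34.4 ± 2.30, Gab1 11.8 ± 1.98 and the exchange factor Sos1 4.64 ± 0.412. In phosphoinositide 3-kinase the regulatory Pik3r1 read 61.4 ± 7.46 FPKM and Pik3r2 18.9 ± 1.63, above the catalytic Pik3cb at 10.4 ± 1.46 and Pik3ca at 7.43, 7.13, 6.89 and 7.14. Pik3ca was the steadiest of the 27. Of the downstream kinases Akt1 read 73.7 ± 4.82 FPKM and Akt2 14.99 ± 1.44. Plcg1 read 6.53 ± 0.406 FPKM, and the transcriptional coactivators Wwtr1 (TAZ) and Yap1 read 26.7 ± 2.37 and 22.9 ± 1.79.

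Receptor tyrosine kinases covered a wide range of levels. The collagen receptor Ddr1 was highest at 36.98, 38.4, 33.6 and 40.8 FPKM, followed by Erbb3 at 33.1, 24.9, 31.2 and 38.8 and Met, the hepatocyte growth factor receptor, at 28.3, 30.2, 27.1 and 31.2. The range of Erbb3 overlapped those of Ddr1 and Met, while Ddr1 was above Met in every library. Next came Csf1r at 27.8 ± 4.83 FPKM, a receptor of macrophages, Axl at 20.1 ± 4.68, Fgfr1 at 18.6 ± 2.92, Epha2 at 16.9 ± 1.68 and Kit. Erbb2, the Her2 gene, read 13.7, 11.6, 14.8 and 14.7 FPKM, and Egfr 5.43, 5.70, 5.80 and 4.51 FPKM, lower in every library. Insr read 5.02 ± 0.609 FPKM and Ddr2, a receptor of stroma, 1.61 ± 0.560. Below 1 FPKM in the mean were Igf1r at 0.966 ± 0.126, Fgfr2 at 0.939 ± 0.356, Mst1r at 0.437 ± 0.193 and Erbb4 at 0.0270 ± 0.0162. Over the list the median was 14.5 ± 0.528 FPKM.

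Among STAT factors and SOCS inhibitors, 14 of 15 genes reached 1 FPKM, with a median CV of 0.0761. Stat3 was the highest, ahead of Stat2 at 27.2, 36.6, 25.1 and 34.6 FPKM and Stat6 at 28.96, 29.9, 28.99 and 28.1 FPKM. Socs1, an inhibitor induced by interferon, was the least even at 3.25, 9.41, 3.17 and 6.25 FPKM, WT 2 highest and WT 3 lowest. Socs6 was the most even at 5.29, 4.995, 5.07 and 5.17 FPKM. Of the chitinase-like genes, only Chil1, Chit1 and Chid1 reached 1 FPKM out of 9. Chit1, chitotriosidase, read 26.8, 13.7, 24.99 and 31.7 FPKM, lowest in WT 2, the library in which Chil1 was highest, and Chid1 read 4.83 ± 0.424. The macrophage gene Chil3, chosen after its values were seen, read 0.480, 0.712, 0.355 and 0.160 FPKM, and Chil4 and Chia1 had no count.

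Acute phase genes, targets of interleukin 6 signalling in liver, were led by Lcn2. Lrg1, a leucine-rich glycoprotein, read 219, 186, 247 and 184 FPKM, Cp (ceruloplasmin) 128, 168, 133 and 94.6 FPKM and Hp (haptoglobin) 53.9, 125, 82.3 and 113 FPKM. Cp and Hp were highest in WT 2. Saa3, a serum amyloid, read 4.77, 10.1, 2.97 and 3.73 FPKM with WT 2 highest, and Orm2 2.35 ± 0.0309. Of 19 genes 11 reached 1 FPKM, and the liver products Crp, Saa4 and Apcs, chosen after their values were seen, had at most 0.0389 FPKM in any library.

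Skeletal muscle genes had the highest median CV of all lists. Acta1, skeletal alpha-actin, read 5.03, 1224, 604 and 15.9 FPKM, a range of 243-fold; its mean was 462 ± 579.7, or 208 without WT 2. Pvalb, a calcium buffer of fast fibres, read 1.24, 327, 105 and 3.11 FPKM and Tnnt3, a fast troponin, 1.17, 315, 106 and 3.90 FPKM. WT 2 and WT 3 were high and WT 1 and WT 4 low. The muscle creatine kinase gene Ckm read 0.653, 165, 59.04 and 2.28 FPKM and Myh4, the myosin of fast fibres, 0.865, 213, 92.2 and 2.61 FPKM. All 15 genes at 1 FPKM or more were highest in WT 2, lowest in WT 1 and in the same order between. Under TPM 14 were lowest in WT 1, and Tnnc2, chosen after its values were seen, had no count. The median was 1.11, 155, 57.6 and 2.72 FPKM, a mean of 54.2 ± 72.3, and 20.5 without WT 2. The 16 genes held 1.27% of protein-coding FPKM in WT 2, 0.567% in WT 3, 0.0233% in WT 4 and 0.0104% in WT 1. Des, desmin, fixed in the pericyte list but also a muscle gene, had the same order at 0.924, 61.98, 36.5 and 1.41 FPKM.

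Fibroblast and matrix genes were present throughout and highest in WT 3. Col1a1 and Col3a1, the main fibrillar collagens, read 119, 101, 263 and 89.5 and 120.3, 110.0, 265 and 75.998 FPKM. Postn, periostin, read 36.002, 30.9, 76.8 and 33.2 FPKM and Lum, lumican, 15.5, 17.1, 36.3 and 8.99 FPKM. In each of these genes WT 3 lay above the other 3 libraries. All 20 genes of the list were highest in WT 3, also under TPM, and 18 were lowest in WT 4. The median over the list was 13.2, 15.2, 27.6 and 9.64 FPKM, a mean of 16.4 ± 7.82. Basement membrane genes were steadier, with a median of 12.996 ± 2.04 FPKM: Sparc read 140.0, 150.0, 268 and 131 FPKM, the collagen IV chain Col4a1 46.8, 54.7, 58.4 and 40.98 FPKM and Agrn, agrin, 45.4, 46.4, 46.9 and 46.6 FPKM. Sparc followed the collagens in WT 3, and agrin was level.

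Vessel genes were mostly highest in WT 3 as well. Plvap, of fenestrated endothelium, read 25.8, 32.7, 35.7 and 25.6 FPKM, Eng, endoglin, 11.8, 13.9, 16.4 and 10.01 FPKM and Cldn5, the endothelial claudin, 2.06, 4.33, 6.06 and 3.69 FPKM. Of 14 blood endothelial genes at 1 FPKM or more, 12 were highest in WT 3, and 14 were under TPM. The lymphatic list was low, with a median of 0.220, 0.272, 0.979 and 0.249 FPKM, a mean of 0.430 ± 0.367, and 0.247 without WT 3. Lyve1, a hyaluronan receptor, read 0.959, 2.16, 3.54 and 0.537 FPKM, and Ccl21a, a chemokine gene with near-identical copies, was counted in WT 3 alone. Of 8 pericyte genes at 1 FPKM or more, 7 were highest in WT 3, among them Mcam at 19.5, 16.1, 23.3 and 16.8 FPKM and Rgs5 at 10.5, 7.93, 15.9 and 9.15 FPKM. Red cell genes were highest in WT 3 too: Hba-a1 read 107, 138, 236 and 142 FPKM and Hbb-bs 57.6, 67.2, 179.7 and 124 FPKM, both with near-identical copies, so their single levels are uncertain.

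Genes of the epidermis, a list added after their values were seen, marked WT 3 and WT 1. Krt10, the keratin of suprabasal epidermis, read 21.4, 2.33, 35.9 and 1.29 FPKM, Krt15 16.4, 0.329, 24.5 and 0.739 FPKM and Lor, loricrin, 12.1, 0.452, 22.9 and 0.0588 FPKM. WT 1 and WT 3 were far above WT 2 and WT 4 in each of the 3. The list's median was 11.95, 0.329, 21.9 and 0.0588 FPKM, a mean of 8.55 ± 10.5, and 4.11 without WT 3. The lincRNA Gm42047, chosen for its pattern, read 34.1, 0.190, 32.8 and 0.333 FPKM with the same split. All 9 epidermal genes at 1 FPKM or more were highest in WT 3, as were all 20 fibroblast genes, and the part of either set in the other's level was not tested. WT 1, high in the epidermal genes, was not high in the fibroblast genes.

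Fat cell genes were highest in WT 2. Cfd, adipsin, read 72.96, 346, 147 and 171 FPKM and Car3, a carbonic anhydrase of fat and muscle, 26.3, 176, 89.2 and 69.2 FPKM. Thrsp, a lipogenic gene that mammary epithelium also expresses, was more even at 189, 251, 146 and 152 FPKM, as was the lipase gene Pnpla2 at 61.7, 73.96, 60.7 and 64.9 FPKM. All 15 white adipocyte genes at 1 FPKM or more were highest in WT 2, 14 under TPM, and 13 were lowest in WT 1. Over the list the median was 7.68 ± 2.56 FPKM. Brown fat genes were low, and Cox8b at 0.622, 43.7, 18.6 and 12.3 FPKM and Cox7a1 at 4.08, 22.6, 6.50 and 4.30 FPKM, both respiratory chain subunits of muscle and brown fat, were high in WT 2 with the muscle genes. Of 16 genes of the milk fat globule and lipid secretion at 1 FPKM or more, 9 were highest in WT 2, or 8 under TPM. Btn1a1, butyrophilin, picked with its values in view, read 57.8, 118, 67.3 and 25.4 FPKM, in the order of the caseins. Others were more even: Muc15 read 349.8, 304, 303 and 373 FPKM, the desaturase gene Scd1 210.3, 342, 237 and 385 FPKM, Plin2, of the lipid droplet coat, 117, 143, 102 and 112 FPKM and Muc1 25.4, 25.3, 26.2 and 24.1 FPKM.

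Schwann cell genes other than Sox10 and Cnp were low. The list had a median of 3.09 ± 1.79 FPKM, and Cnp read 34.8 ± 5.22 FPKM. Sox10 is shared with the progenitor list, so its level does not separate nerve from epithelium.

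Macrophage and monocyte genes had the highest median of the immune cell lists. Apoe read 608, 1002, 871 and 408 FPKM, Lyz2, lysozyme, 319, 567, 410.3 and 269 FPKM and C1qa, a complement component of tissue macrophages, 199, 371, 253 and 171 FPKM. Each was highest in WT 2 and lowest in WT 4. All 20 macrophage and monocyte genes reached 1 FPKM, with a median of 10.96 ± 1.84 FPKM, and 17 were highest in WT 2, or 13 under TPM. MHC class II followed: Cd74, the invariant chain, read 1284, 2409, 1200.4 and 1129.8 FPKM and H2-Ab1 198, 403, 186 and 177 FPKM, and all 8 genes at 1 FPKM or more were highest in WT 2. In MHC class I, 14 of 16 genes were highest in WT 2, or 12 under TPM, and all 16 lowest in WT 3, H2-D1 reading 2003, 2722, 1718 and 1956 FPKM and H2-K1 778, 969.7, 663 and 749 FPKM. The H2 genes are close copies of one another, so their single levels are uncertain. Dendritic cell genes were led by Bst2, an interferon-induced gene, at 304, 531, 249.8 and 476 FPKM, while Itgax read 7.82 ± 2.15 and Siglech 1.01 ± 0.515. Mast cell proteases such as Mcpt4, at 4.90, 6.29, 12.4 and 1.41 FPKM, and Cma1, at 4.06, 6.44, 9.08 and 1.73, were highest in WT 3 and lowest in WT 4.

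Neutrophil genes were below 1 FPKM in the median. Ltf was high, but epithelium makes it as a milk protein. S100a8 read 30.1, 31.95, 29.7 and 25.4 FPKM, while its partner S100a9 read 0.536, 1.97, 0.807 and 0.501 FPKM. The granule genes Mpo, Elane and Camp and the lineage gene Ly6g, chosen after their values were seen with S100a9, stayed below 0.3 FPKM in every library, and Ctsg had no count. Cd177 read 6.87 ± 1.80 FPKM, Prtn3 6.43 ± 0.966, and 7 of the 20 genes reached 1 FPKM. The median over the list was 0.209, 0.651, 0.241 and 0.187 FPKM, a mean of 0.322 ± 0.221, and 0.212 without WT 2.

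T cell genes were low and highest in WT 2. Trbc2, a constant region of the T cell receptor, read 8.17, 17.8, 8.52 and 7.63 FPKM and Lck, the T cell Src family kinase, 2.75, 6.43, 2.99 and 4.78 FPKM. Cd3e, Cd4, Cd8a and Foxp3, chosen after their values were seen, read 1.14 ± 0.322, 1.90 ± 0.8292, 3.15 ± 1.67 and 0.730 ± 0.196 FPKM. Of 16 T cell genes at 1 FPKM or more, 15 were highest in WT 2, or 14 under TPM. The list's median was 1.38, 3.11, 1.42 and 1.37 FPKM, a mean of 1.82 ± 0.859, which placed its members at the 10.5th percentile, in the median over members of at least 1 FPKM, of the 11521 protein-coding genes of at least 1 FPKM. Cytotoxic genes were lower still, with Ccl5 at 10.8, 16.9, 8.01 and 11.2 FPKM and Nkg7 at 6.12, 15.9, 4.38 and 5.72 FPKM the highest. Plasma cell genes set WT 2 apart: the immunoglobulin constant gene Igkc read 125, 765, 131 and 59.4 FPKM and Jchain, the joining chain, 9.16, 61.2, 8.91 and 4.34 FPKM. The B and plasma cell list had a median of 0.289, 1.27, 0.392 and 0.430 FPKM, or 0.370 in the mean without WT 2. Xbp1 at 298 ± 27.03 FPKM and Sdc1 at 33.1 ± 5.88 FPKM, which stand in the same list, are made by epithelium too and were lowest in WT 2.

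Type I interferon-induced genes were well above the common level, and were lowest in WT 3. Isg15, a ubiquitin-like protein, read 149.9, 254, 129 and 279.6 FPKM, Irf7, the master factor of the response, 117, 175, 99.6 and 174 FPKM and Rsad2, viperin, 15.8, 19.6, 12.02 and 45.8 FPKM. WT 4 was highest for Isg15 and Rsad2, and WT 2 and WT 4 were level for Irf7. All 24 genes reached 10 FPKM and all 24 were lowest in WT 3 on both scales, against 26.2% of all genes by FPKM and 12.5% under TPM. The highest library was WT 4 for 19 and WT 2 for 5, or WT 4 for 20 and WT 2 for 3 under TPM. Over the list the median was 26.3, 35.5, 21.7 and 44.4 FPKM, a mean of 31.97 ± 10.05. The order differs from that of MHC class I, in which WT 2 was highest, while both lists were lowest in WT 3.

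The promoters of these genes are shown because the list varied between glands as a set. The interferon-stimulated response element, searched as GAAA, any 2 bases and GAAA again on both strands in the 250 bases before each start, occurred in 8 of 17 matched promoters of the list (47.1%), against 256 of 9060 (2.83%). The same letters occurred in 4 of 19 ribosomal protein promoters (21.1%) and 1 of 9 acute phase promoters (11.1%). In cell cycle, milk and skeletal muscle promoters the shares were 4.35%, 0% and 0%. Ifit1, an RNA-binding effector chosen after its values were seen, read 36.1, 42.9, 31.4 and 66.3 FPKM. Stretches of the RefSeq promoters of Isg15 (chr4:156200835-156200936, minus strand), Rsad2 (chr12:26456523-26456612, minus strand) and Ifit1 (chr19:34640745-34640853, plus strand) follow, with every match, on either strand and overlapping ones joined, in capitals:
Isg15: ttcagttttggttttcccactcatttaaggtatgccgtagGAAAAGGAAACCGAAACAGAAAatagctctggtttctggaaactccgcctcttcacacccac
Rsad2: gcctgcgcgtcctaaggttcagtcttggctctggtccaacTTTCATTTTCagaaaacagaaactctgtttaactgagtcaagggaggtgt
Ifit1: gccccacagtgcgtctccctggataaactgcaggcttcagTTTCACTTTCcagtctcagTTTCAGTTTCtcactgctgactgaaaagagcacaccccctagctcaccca
The Isg15 stretch holds 3 overlapping matches, the nearest 66 bases before the start, Rsad2 holds 1 at 120 bases, and Ifit1 holds 2, the nearest at 85 bases. The 250 bases before Irf7 held no match, which says only that these letters are not in that window.

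Cell cycle genes were highest in WT 4 throughout. Pcna, the replication clamp, read 62.7, 55.6, 54.6 and 67.1 FPKM, Ccnb2, a mitotic cyclin, 28.6, 22.7, 25.1 and 38.1 FPKM, and Rrm2, a subunit of ribonucleotide reductase, 28.7, 20.96, 23.97 and 37.9 FPKM. WT 4 was highest for each. Mki67, the common proliferation marker, chosen after its values were seen, read 18.7, 13.6, 15.8 and 19.4 FPKM, rank 3088 among protein-coding genes. All 27 genes of the list reached 1 FPKM and were highest in WT 4, and 21 were lowest in WT 2. Under TPM 26 of 27 were highest in WT 4 and all 27 lowest in WT 2. Of all genes 29.5% were lowest in WT 2 by FPKM and 51.03% under TPM. The median over the list was 14.6, 12.05, 12.5 and 19.2 FPKM, a mean of 14.6 ± 3.25. The differences were small beside those of muscle genes: the median CV was 0.171.

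A CCAAT box, searched as CCAAT on both strands, occurred in 20 of the 23 matched promoters of this list (86.96%), against 36.4% of the 9060. The cell cycle homology letters TTTGAA occurred in 5 of 23 (21.7%), against 10.5%. They were not particular to this list: 3 of 10 milk promoters (30%) and 2 of 9 acute phase promoters (22.2%) held them. In interferon-induced, ribosomal protein and skeletal muscle promoters the shares were 11.8%, 10.5% and 0%. The promoter stretches of Ccnb2 (chr9:70421555-70421681, minus strand) and Ccnb1 (chr13:100786509-100786625, minus strand) show repeated boxes, in capitals:
Ccnb2: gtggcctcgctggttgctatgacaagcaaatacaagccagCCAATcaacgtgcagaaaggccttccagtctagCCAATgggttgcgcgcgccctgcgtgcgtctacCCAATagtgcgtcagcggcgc
Ccnb1: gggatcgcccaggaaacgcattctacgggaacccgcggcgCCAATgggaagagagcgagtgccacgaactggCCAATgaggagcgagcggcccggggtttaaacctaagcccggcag
Ccnb2 holds 3 boxes, the nearest 21 bases before the start, and Ccnb1, chosen after its values were seen, 2, the nearest 67 bases before. Ccnb1 read 14.2, 9.82, 11.8 and 19.2 FPKM, in the same order of libraries as Rrm2.

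Immediate-early genes respond within minutes to growth factors and to handling of tissue. Their list median was level between libraries, but their median CV was 0.122, against 0.0943 over all genes of at least 1 FPKM. Jund read 137, 126, 134 and 149.6 FPKM, Ier2 76.003, 68.8, 71.98 and 76.6 FPKM and Junb 56.7, 54.8, 56.7 and 67.7 FPKM. Fosb was the least even, at 1.68, 0.695, 1.99 and 0.578 FPKM. The list's median was 19.8 ± 1.39 FPKM. Glycolysis genes had a median of 75.5 ± 8.62 FPKM, with Ldha at 353, 424, 365 and 337 FPKM, Pkm at 354, 388, 337 and 392 and Aldoa, an aldolase shared with muscle and highest in WT 2, at 273, 514, 352 and 302. Chaperones of the endoplasmic reticulum, which a secretory cell needs, had a median of 90.9 ± 7.96 FPKM and a median CV of 0.0904, with Calr at 502 ± 50.2 FPKM, Pdia3 at 426 ± 37.7 and Hspa5 at 377 ± 40.2. Ribosomal protein genes were the steadiest list, with a median of 343 ± 14.2 FPKM and a median CV of 0.0620. Mitochondrially encoded genes were highest in WT 4 in 11 of 13 cases, mt-Nd1 reading 1449, 1624, 1735 and 2251 FPKM and mt-Cytb 1469, 1548, 1599 and 2134 FPKM. Of 20 nuclear genes of the respiratory chain 11 were highest in WT 2 and 8 in WT 4, but under TPM 8 and 10, so the leading library depended on the scaling. The list had a median of 51.6, 54.1, 52.2 and 54.9 FPKM.

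Transcription factors by family annotation numbered 1469, of which 771 reached 1 FPKM, 212 reached 10 and 10 reached 100. Factors outside the lists were chosen after the values were seen. Xbp1, of the secretory pathway, was first, then Ybx1 at 218 ± 21.3 FPKM, Cebpb, a factor of luminal differentiation, at 203 ± 15.1, and Irx1 at 165 ± 10.5. Irf7, Sox10 and Jund came next, followed by Srebf1, the factor of lipid synthesis, at 131, 132, 138 and 95.4 FPKM, Ehf, and Irx2 at 105 ± 9.59. Srebf1 was lowest in WT 4. Foxi1, a factor known from ion-transporting epithelium, read 52.9, 66.3, 51.4 and 25.5 FPKM, also lowest in WT 4. Batf2, an interferon-induced factor, had the largest CV of the factors at 10 FPKM or more, at 12.6, 23.2, 7.29 and 11.5 FPKM.

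Most genes differed little between the 4 glands. The median CV with the counting part removed was 0.0943 over the 12909 genes of at least 1 FPKM. Over the 5127 genes of at least 10 FPKM with 10 counts in each library it was 0.0793, against 0.0250 expected from counting alone. Of these 81 had a CV above 0.5, 29 above 1, and 205 did not exceed counting error. The 15 largest were Igkv1-117, Csn1s2a, 11 genes of skeletal muscle (Tnni2, Pvalb, Tnnt3, Actn3, Cox6a2, Ckm, Atp2a1, Pygm, Myh1, Mylpf and Myh4), Eno3, the muscle enolase, and Jchain. All 15 were highest in WT 2. Igkv1-117, an immunoglobulin variable segment, read 1.39, 41.7, 1.96 and 2.85 FPKM. At the other end stood genes of basic cell functions, each with a CV at the counting limit: Kdelr2, a retrieval receptor of the secretory pathway, read 70.4, 70.4, 69.5 and 69.9 FPKM, Calu, calumenin, 74.9, 74.02, 73.9 and 74.6 FPKM and Sirt2, a deacetylase, 10.7, 10.8, 10.9 and 10.8 FPKM.

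**Figure D4:**
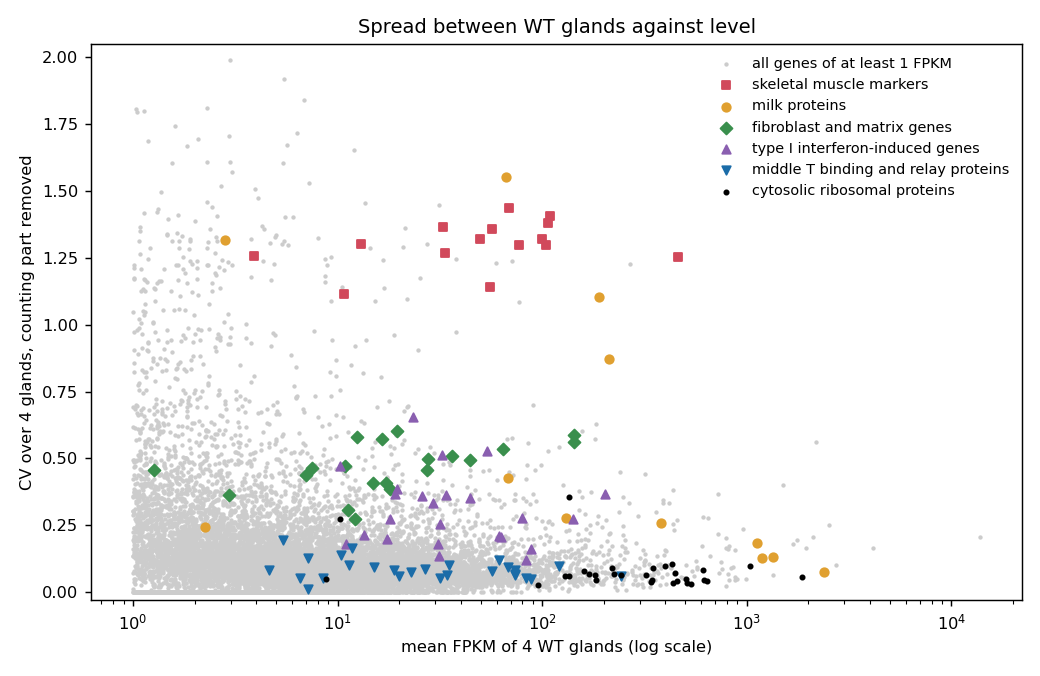
CV over 4 WT glands with the counting part removed against mean FPKM (log scale) for the 12909 genes of at least 1 FPKM (grey), with 6 lists coloured. Skeletal muscle genes lie above 1, milk genes run from under 0.1 to over 1.5, and middle T partners and most ribosomal genes lie under 0.2.

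Of the 40 lists, 34 had a median CV above the all-gene median and 6 at or below it. The 6 were ribosomal proteins, STAT and SOCS genes at 0.0761, nuclear oxidative phosphorylation genes at 0.0803, middle T partners, alveolar and luminal progenitor markers, and endoplasmic reticulum chaperones. Spread also depended on level: the median CV was 0.102 for protein-coding genes from 1 to 10 FPKM and 0.0771 from 10 to 100. Genes of at least 10 FPKM had 0.0793. Oxidative phosphorylation genes, middle T partners at 0.0815, progenitor markers at 0.0885 and chaperones at 0.0904 were not below that. All lists of stromal and immune cells were among the 34. WT 2 was highest for muscle, white fat, T cell, MHC class II, macrophage and casein genes in most or all of their members, WT 3 for fibroblast, endothelial, pericyte, red cell and epidermal genes, and WT 4 for proliferation, interferon, luminal keratin and mitochondrial genes. WT 1 was highest for 9 of the 27 middle T partners, or 10 under TPM, while WT 4 was highest for 12 on both scales. Of 11 alveolar genes it was highest for 4, or 5 under TPM. The shares of all genes highest in WT 1 were 18.8% and, under TPM, 30.8%. The lists that were high in the same library share that library, and their part in one another's level was not tested.

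**Figure D5:**
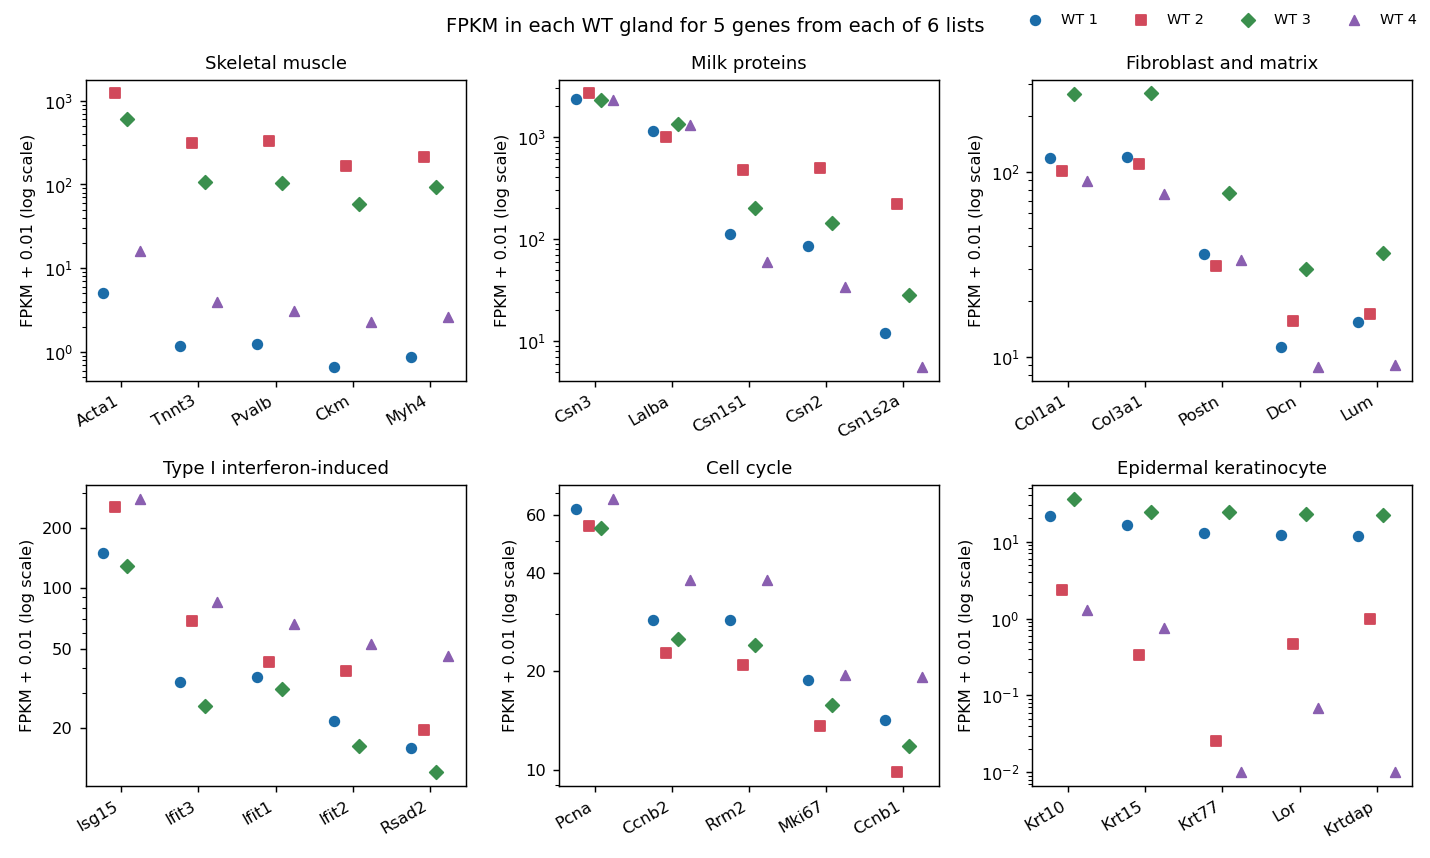
FPKM + 0.01 (log scale) in WT 1 to WT 4 for 5 genes from each of 6 lists, one marker per gland; the genes were picked after their values were seen. Muscle genes and 4 of 5 milk genes are highest in WT 2, fibroblast and epidermal genes in WT 3, and interferon-induced and cell cycle genes in WT 4.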

How the data were processed

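RNA-seq of 12 mouse mammary glands was deposited as 1 table of FPKM values per gene and library, with a gene length, made by the authors; the 4 columns of genotype MIC WT were used. Per the labels, total RNA was extracted with a Qiagen RNeasy Mini kit and libraries were made with the NEBNext Ultra II kit. As tools the submitters' processing notes list STAR and HTSeq beside Trimmomatic, limma and edgeR, and as builds mm10 and GRCm38; no version is given. The authors also deposited 2 comparison tables with counts per library. The library total behind FPKM was estimated from these counts, as a median over genes. They were also used to check that FPKM times gene length times that total gives whole counts (0 of 27916 WT counts differed, within 0.001). Because the same counts set the total, the check covers the relation between genes and not the total itself. The gene counts given here were recovered that way, and log2 values, CVs, ranks and TPM were computed from the deposited FPKM with Python 3.11.15, pandas 2.3.3, numpy 2.4.6 and scipy 1.17.1.

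No group was contrasted, and no test was run other than Dixon's limit, used below to flag single libraries. A gene was taken as detected at 1 FPKM. The spread is the CV over 4 libraries with the counting part removed (CV squared minus the mean of 1/count, floored at 0), which was tested on simulated data. Named genes were Stat3 and Chil1, the 25 highest protein-coding genes, the 4 highest genes of each other class with 10 counts in each library, in each list the 4 highest members and those with the largest and smallest CV among members of at least 1 FPKM, all middle T partners, hormone-sensing markers and receptor tyrosine kinases, and the 15 largest and 10 smallest CVs among genes of at least 10 FPKM. Some genes that this rule names are not reported here. Any other gene named is marked as picked with its values in view. The members and lists were chosen with earlier results of these data known. Of 54532 genes, 54409 were found by ID in GENCODE M21 (GRCm38) and 53499 had the same position; 27 names that had been turned into dates were restored. Promoter and miRNA sequences are from RefSeq (GRCm38.p6), and the 57-base sequence of the short genes is from GENCODE M21. Alternatives were other detection limits, TPM, median-of-ratios and quantile scaling, pseudocounts of 1 and 0.1, and leaving out each library.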

Additional observations from a re-analysis of the deposited data

Results flagged for a closer look

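A library was picked out where its gap to the nearest of the other 3, divided by the whole range, passed Dixon's limit for 4 samples; chance does this in about 1 of 20 groups. Of 40 list medians 7 passed, and of 214 genes given in the text 24 did; the lists share genes and libraries, and the genes include those named for a large spread or picked with their values in view, so the tallies cannot be set against that chance rate.

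WT 2 stood above the rest in the list medians of T cell genes at 3.11 FPKM (the others 1.37 to 1.42), of B and plasma cell genes at 1.27 FPKM (0.289 to 0.430) and of neutrophil genes at 0.651 FPKM (0.187 to 0.241). Among immune genes it stood above in Igkc at 765 FPKM, Jchain at 61.2, Igkv1-117 at 41.7, Trbc2 at 17.8, Nkg7 at 15.9, Cd8a at 5.62, Cd4 at 3.13, Siglech at 1.78, Cd74 at 2409 and H2-Ab1 at 403. The other genes with WT 2 apart were Csn1s2a at 222 FPKM, Cox7a1 at 22.6, the lincRNA Gm10076 at 202 and Crp at 0.0389, the last with no count elsewhere.

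WT 3 stood above the rest in the lymphatic list median at 0.979 FPKM (0.220 to 0.272) and in Sparc at 268 FPKM, S100a6 at 97.6 and Postn at 76.8. Ccl21a at 11.9 FPKM, from 91 counts, and Hba-a2 at 0.158, from 2 counts, had no count outside WT 3. A gene counted in a single library, as Crp was too, passes the limit at any level. WT 3 stood below the rest in Epcam at 504 FPKM and Ywhag at 58.7. WT 1 stood above in the alveolar and luminal progenitor median at 77.0 FPKM (64.1 to 64.9) and in Gapdh at 24.98. WT 4 stood above in Junb at 67.7 FPKM, and below in the glycolysis median at 62.7 FPKM (78.6 to 81.0), the chitinase-like median at 0.160 FPKM (0.346 to 0.377) and Srebf1 at 95.4. The 2 medians do not describe all members. WT 4 was highest for 7 of 17 glycolysis genes and lowest for 6, or 7 under TPM. The chitinase-like median lies among the 6 of 9 genes below 1 FPKM. Of the other 3 chitinase-like genes, WT 4 was highest for 2 and lowest for 1.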

How the results depend on the processing

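The number of detected genes was 7892.5 at a limit of 5 FPKM, 18953.2 at 0.1 FPKM and 15777.8 at 10 counts, and ran from 12763 to 12956.3 when 1 library was left out. The protein-coding share was 97.7% to 97.8% without 1 library and 88.2% as a share of FPKM. The share of the 100 highest genes was 15.5% as a share of counts and 29.2% with all classes ranked together, both from their own construction, and 27.1% to 27.6% without 1 library. The median spread was 0.111 with no filter on low values, and as an SD of log2 values 0.132 with a pseudocount of 1 and 0.153 with 0.1. Without 1 library it ran from 0.0769 (without WT 4) to 0.0988, and quantile normalization gave 0.0969. Lists with a median of at least 10 FPKM numbered 28 under TPM, whose unit is about 3 times larger, and 21 to 23 without 1 library. The median list percentile, among protein-coding genes of at least 1 FPKM, was 76.0, and 73.6 (without WT 2) to 76.8 without 1 library. Lists with a spread above that of all genes numbered 34 to 35.

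Leaving out 1 library moved 6 of 40 list medians by over 1.5 times, 4 through WT 2 and 2 through WT 3, each given beside its list. Of 214 gene means given in the text it moved 28 by as much, 17 through WT 2, 5 through WT 3, 2 through WT 1 and 4 through WT 4. It moved 23 of 40 list spreads over 1.5 times, 9 through WT 2, 7 through WT 3 and 7 through WT 4, so the spread of a list often rests on 1 library. TPM, chosen for the counts of highest genes after seeing the data, shifted the libraries by 0.06, -0.09, 0.05 and -0.02 on the log2 scale from their mean. No paired analysis was possible because no groups were compared and the numbers in the titles pair no samples.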
